A study of Mus musculus with 2 samples.

Results

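Plasma cells are antibody-secreting cells that arise from activated B cells. Their identity rests on a small set of transcription factors that switch off the B-cell programme and enlarge the endoplasmic reticulum (ER), in which immunoglobulin chains are folded, assembled and sent out of the cell. NOD mice become diabetic through autoimmunity, and B-lineage cells infiltrate their islets beside T cells. The 9 genes described here, of 32285 gene rows in the files, were taken by symbol. They are the regulators Xbp1, Prdm1 and Irf4, the ER factors Mzb1 and Derl3, the secreted products Jchain and Slpi, the surface proteoglycan Sdc1 and the transcription elongation factor Eaf2. The question was which of them are specific to plasma cells in the islet and which are shared with other leukocytes.

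The data are 2 droplet-based single-cell RNA libraries (10x Genomics 3′ v3.1 chemistry) of islet leukocytes sorted as CD45+ and CD31- from females aged 12 weeks. The WT NOD library comes from NOD mice, and the other is labelled NOD.Cxcl16-/-, NOD mice without the chemokine gene Cxcl16. Both groups share the NOD background, and the labels give neither the number of animals behind a library nor any treatment. The library labelled NOD.Cxcl16-/- held 10062 UMIs of Cxcl16, or 102 CPM (the usual scaling of counts to a common library total), against 9668 UMIs or 103 CPM in WT NOD. A 3′ tag outside the deleted part of a gene checks nothing, and the extent of the deletion is not given in the sources used here, so no direction below is ascribed to the genotype. With 1 library per group there is no replicate and no test, and all intervals are 95% intervals that cover counting error only.

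The WT NOD library held 13859 barcodes at a median of 3808 UMIs, and the other 10554 barcodes at a median of 5054 UMIs. After filtering 10737 and 9330 barcodes were kept, and the libraries shared 45 barcode sequences. Cells were gated without using any of the 9 genes, other than as part of the total UMIs of a barcode. The plasma gate took barcodes with at least 10% of their UMIs from immunoglobulin genes, and it held 84 barcodes in WT NOD and 120 in the other library, at medians of 15938 and 22280 UMIs. Immunoglobulin made up 48.9% and 45.7% of all UMIs in the gate. The B, plasmacytoid dendritic cell (pDC), T and macrophage gates, defined by at least 2 detected markers each, held 1831, 70, 6719 and 74 barcodes in WT NOD and 2119, 71, 5068 and 209 in the other. Barcodes with at least 10% immunoglobulin, or with at least 2 markers of another of these gates, were left out of them. These gates had lower medians, of 4386, 7373, 3946 and 8782 UMIs in WT NOD and 4604, 9559, 4710 and 10750.0 UMIs in the other library, so levels are given as CPM of the UMIs summed over a gate.

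The name of the plasma gate was looked at on 6 plasma-cell markers that were used neither for the gate nor as members. They were chosen with earlier results of these data known, so the check is not independent. Tnfrsf17, the receptor BCMA, stood at 68.6 CPM in the plasma gate and 0.341 CPM in the B gate of WT NOD, and at 73.4 and 0.31 CPM in the other library. Txndc5, Creld2, Fkbp11, Tent5c and Edem1 were likewise higher in the plasma gate than in the B gate in both libraries. In a wider list of plasma-cell regulators and surface genes only 6 of 13 tested were, beside 14.7% of all genes tested. Among the rest, Cd38 stood at 4.79 and 8.66 CPM against 97.1 and 92.5 CPM in the B gate. Markers of other cells were low there: the summed T markers stood at 39.9 and 19.8 CPM against 3906 and 3821 CPM in the T gate, and the summed macrophage markers at 21.5 and 11.5 CPM against 10402 and 12707 CPM in the macrophage gate. B markers were at 538 and 559 CPM, against 5375 and 4733 CPM in the B gate, and 38 of 84 and 62 of 120 plasma-gate barcodes had at least 2 of them. A further 127 barcodes in WT NOD and 117 in the other library passed the immunoglobulin threshold but had at least 2 markers of T cells, macrophages or pDCs, and they were left out. Their summed T markers stood at 948 and 742 CPM, and they had Jchain at 31124 and 22465 CPM. With them kept in the plasma gate, the same 6 genes made up the count that follows. A setting that returns them to the gates of their other markers was not run.

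Of the 9 genes, 6 were restricted to the plasma gate: Jchain, Slpi, Mzb1, Derl3, Sdc1 and Eaf2. Restricted means a plasma-gate CPM at least 4 times that of each of the B, pDC, T and macrophage gates in both libraries. By the same rule 32 of 12068 genes tested, or 0.265%, were restricted. Xbp1 fell just short because of pDCs, Prdm1 was within 1.5-fold of the macrophage level in both libraries, and Irf4 was highest in B cells. Against the B gate alone, 8 of the 9 were at least 4-fold higher in both libraries, beside 3.12% of all genes tested, and Irf4 was the exception. All 9 passed the minimum of 50 UMIs over the 5 gates in each library, so none is missing from these counts. The plasma gate is part of that sum, and in WT NOD Sdc1 reached the minimum only through its 157 UMIs there. With no minimum the same 6 genes were restricted, beside 0.172% of all genes.

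**Figure D1:**
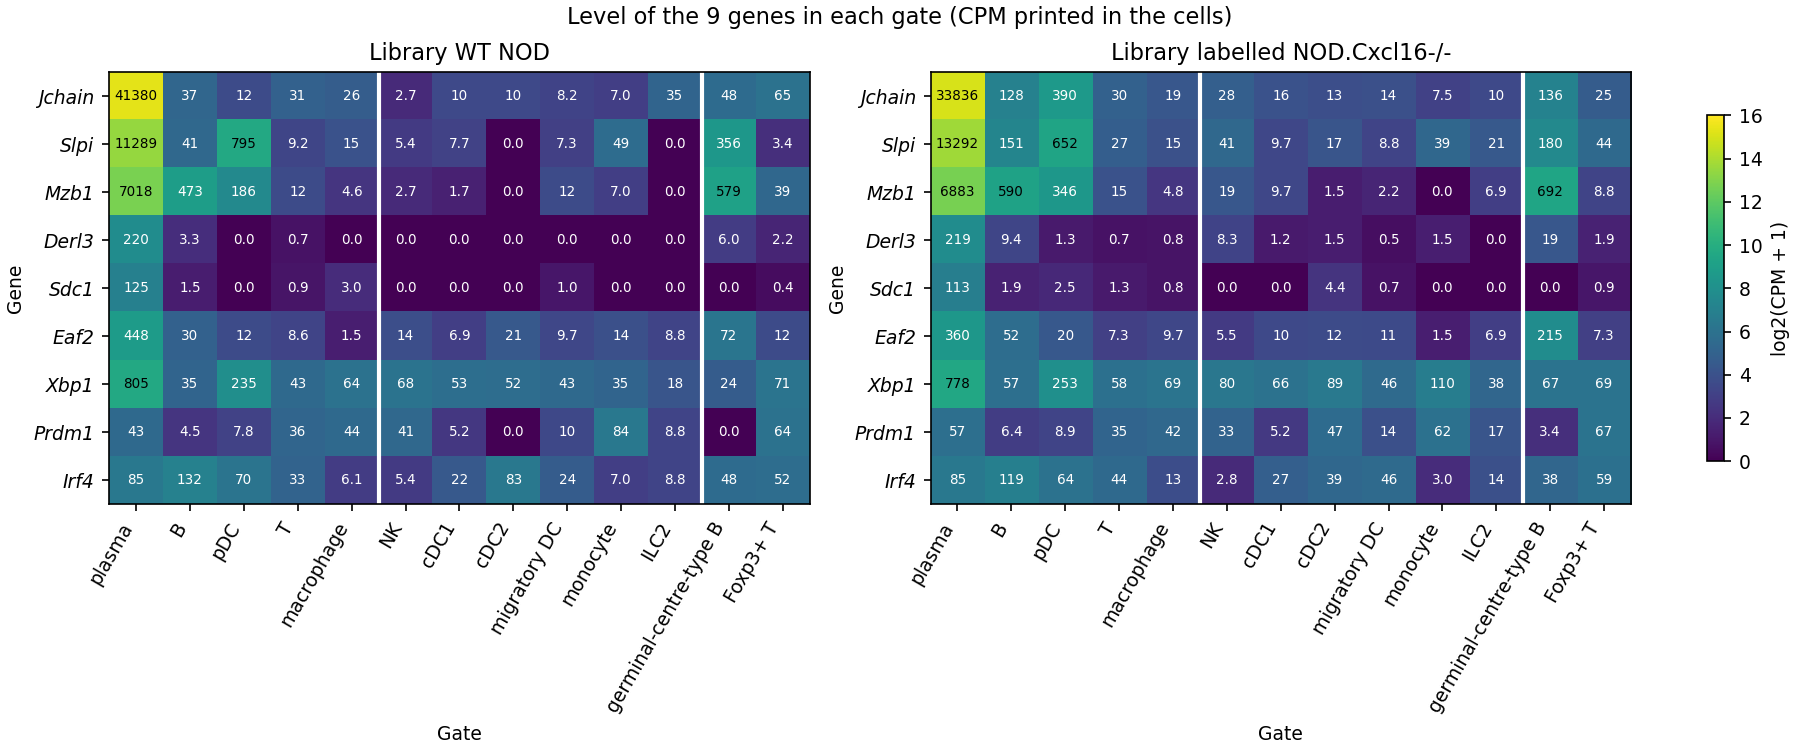
Heat map of the level of each gene (rows) in each gate (columns) for the WT NOD library (left) and the library labelled NOD.Cxcl16-/- (right), coloured by log2(CPM + 1) with the CPM printed in each cell. White lines separate the 5 main gates, the 6 further gates and the subsets of the B and T gates. Jchain stood at 41380.1 and 33836 CPM in the plasma gate, while Prdm1 and Irf4 had similar levels in several gates.

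Of the secreted products, Jchain had the highest ratio to the next gate of all 9 genes. It encodes the joining chain that links immunoglobulin units in polymeric IgM and IgA. Its level was 41380.1 CPM (41025 to 41738) in the plasma gate of WT NOD and 33836 CPM (33605 to 34068) in the other library. In WT NOD the B gate came next at 37.3 CPM, so that the plasma gate was 1111-fold higher (997 to 1242), and the T, macrophage and pDC gates stood at 30.6, 25.8 and 11.7 CPM. In the other library the pDC gate came next at 389.55 CPM, for 86.9-fold (77.6 to 97.5). That pDC value came mainly from 1 barcode, which carried 289 of the 306 Jchain UMIs, and without it the pDC gate stood at 22.4 CPM, below the 128 CPM of the B gate. Among the 12068 genes tested Jchain ranked 1st by this ratio, taking the lower of the libraries. Barcodes with at least 10% immunoglobulin, left-out ones included, held 97.2% and 95.8% of all Jchain UMIs.

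Slpi encodes a secreted inhibitor of serine proteases such as neutrophil elastase. It stood at 11289 CPM in the plasma gate of WT NOD and 13292 CPM in the other library. The pDC gate was next in both, at 795 and 652 CPM, so the plasma gate was 14.2-fold (12.9 to 15.7) and 20.4-fold (18.7 to 22.3) higher. In contrast to Jchain, the pDC signal was spread over cells: 35 of 70 and 43 of 71 pDC barcodes had a Slpi UMI, beside 4.20% and 7.26% of T-gate barcodes at their lower depth. Without the barcode richest in it the pDC level was 715 and 522 CPM. In the B gate the level was 41.5 CPM in WT NOD and 151 CPM in the other library, where 1 barcode carried 584 of 1955 UMIs. B cells with germinal-centre markers, 14 and 67 barcodes, had 356 and 180.3 CPM, but in WT NOD 1 barcode carried 53 of their 59 UMIs and the level without it was 46.4 CPM. Slpi was thus highest in plasma cells and second in pDCs.

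The ER factors were restricted with different neighbours. Mzb1, an ER protein that assists immunoglobulin assembly and secretion in B-lineage cells, stood at 7018 CPM in the plasma gate of WT NOD and 6883 CPM in the other library. The B gate followed at 473 and 590 CPM, for 14.8-fold (14.3 to 15.4) and 11.7-fold (11.4 to 12.0). Mzb1 was therefore graded along the B lineage and not absent from it: 73.8% and 76.8% of B-gate barcodes had a UMI, against 4.36% and 2.94% in the T gate. The pDC gate stood at 186 and 346 CPM, and at 93.5 CPM in the library labelled NOD.Cxcl16-/- without the barcode that carried 201 of its 272 UMIs. T cells and macrophages were at 15.3 CPM or less. Mzb1 overlaps the gene SPATA24 on the same strand in the annotation, so its counts are uncertain where their exons coincide. On GRCm38 Mzb1 lies at 18:35647267-35649367, minus strand.

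Derl3 encodes a derlin, a membrane protein that helps to pull misfolded proteins out of the ER for degradation. It stood at 220.2 CPM (195 to 248) in the plasma gate of WT NOD and 219 CPM (201 to 238) in the other library. In WT NOD no UMI was seen in the pDC or macrophage gates, and against a floor of 3 counts in the pDC gate the plasma gate was at least 37.5-fold higher. In the other library the B gate was next at 9.37 CPM, for 23.4-fold (19.1 to 28.7). A Derl3 UMI was found in 65.5% and 72.5% of plasma-gate barcodes, against 1.42% and 2.08% in the B gate and 0.342% and 0.434% in the T gate. Outside the plasma gate its level was at most 9.37 CPM in all 4 other main gates of both libraries, and 6.03 and 18.9 CPM in B cells with germinal-centre markers.

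Derl3 is also the one gene, among those whose promoter was matched, that held the complete ER stress response element, the composite motif through which XBP1 and ATF6 are known to act on ER genes. The promoter windows of RefSeq (GRCm38.p6, 250 bases before to 50 bases after the start) were matched for 8 of the 9 genes, by 10 windows of 32841. They were searched on both strands for that element, spelled CCAAT, then any 9 bases (N), then CCACG. It was found on the strand opposite to Derl3, beginning 156 bases before the start, and in 0.119% of all windows. The shorter CCACGTG was found once each in Derl3, 169 bases before the start, and in Slpi, 147 bases before the start, and in 3.88% of all windows. The window of Derl3 is chr10:75893148-75893447 on the plus strand, and that of Slpi is chr2:164356458-164356757 on the minus strand. Both are shown because they are the member windows with these motifs, with the stress element of Derl3 and the CCACGTG of Slpi in capitals.
Derl3: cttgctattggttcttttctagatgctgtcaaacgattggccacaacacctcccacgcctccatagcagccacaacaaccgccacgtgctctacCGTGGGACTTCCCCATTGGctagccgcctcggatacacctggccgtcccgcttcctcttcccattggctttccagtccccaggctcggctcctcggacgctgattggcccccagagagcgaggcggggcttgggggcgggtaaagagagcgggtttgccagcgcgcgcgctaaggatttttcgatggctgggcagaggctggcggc
Slpi: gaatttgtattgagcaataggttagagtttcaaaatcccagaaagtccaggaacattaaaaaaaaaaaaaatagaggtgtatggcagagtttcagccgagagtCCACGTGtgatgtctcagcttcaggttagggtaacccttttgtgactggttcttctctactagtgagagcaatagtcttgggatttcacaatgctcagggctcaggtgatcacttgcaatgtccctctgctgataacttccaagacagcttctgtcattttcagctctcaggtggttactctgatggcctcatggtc
Other searched motifs were ATTGG, any base, then CCACG (the second ER stress element, 0.0365% of all windows), TGACGTG (2.01%), GGAA, any 2 bases, then GAAA (2.72%) and GAAA, any 2 bases, then GAAA (3.44%), and these letters were in no member window. GTGAAAG was found in 1 window of Eaf2, 7 bases before the start, and in 4.24% of all windows. A match to letters is a description, and binding was not measured.

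Sdc1, or CD138, is the cell-surface proteoglycan by which plasma cells are usually sorted. It stood at 125 CPM (106 to 146) in the plasma gate of WT NOD and 113 CPM (99.6 to 127) in the other library. In WT NOD the pDC gate held 0 UMIs, which makes the plasma gate at least 21.3-fold higher against the floor of 3 counts, and the B gate stood at 1.48 CPM. In the other library the pDC gate held 2 UMIs, for a ratio of 44.2 (12.1 to 367), and the B gate stood at 1.86 CPM. Across all 11 gates of both libraries the highest level outside the plasma gate was 4.36 CPM, from 3 UMIs in the cDC2 gate of the library labelled NOD.Cxcl16-/-. Even so, only 47 of 84 and 80 of 120 plasma-gate barcodes had a Sdc1 UMI (0.402% and 0.671% in the T gate), and at a fixed depth of 2000 UMIs the shares were 19.4% and 22.8%.

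Eaf2 encodes a partner of the ELL family of transcription elongation factors. It stood at 448 CPM (412 to 487) in the plasma gate of WT NOD and 360.2 CPM (337 to 385) in the other library. The B gate came next at 29.8 and 51.8 CPM, for 15.1-fold (13.0 to 17.5) and 6.95-fold (6.28 to 7.70). Within the B gate the level was uneven: barcodes with at least 2 germinal-centre markers had 72.3 CPM (37.4 to 126) and 215 CPM (192 to 240), against 28.9 and 30.6 CPM in the remaining B cells. Germinal-centre-type cells were 67 barcodes in the library labelled NOD.Cxcl16-/- and 14 in WT NOD, and the B-gate level of Eaf2 differed by 51.8 against 29.8 CPM while the level in the remaining B cells was close. Eaf2 was thus restricted to plasma cells by the 4-fold rule and was also high in germinal-centre-type B cells. It overlaps Iqcb1 and AC154232.1 on the opposite strand.

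The 3 regulators were shared with other cells. Xbp1, the transcription factor that expands the secretory apparatus and whose RNA is spliced by the stress sensor IRE1, stood at 805 CPM (756 to 856) in the plasma gate of WT NOD and 778 CPM (743 to 814) in the other library. The pDC gate was next in both, at 235 and 253 CPM, which gives ratios of 3.43 (2.83 to 4.18) and 3.07 (2.65 to 3.57), below the 4-fold line. Every other main gate was lower, with B cells at 35.1 and 57.2 CPM, T cells at 42.7 and 58.5 CPM and macrophages at 63.7 and 69.0 CPM. Xbp1 was therefore present in all gates, highest in plasma cells and second in pDCs, themselves secretory cells. Gene counts do not separate its spliced and unspliced forms.

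Prdm1 encodes Blimp-1, the repressor that shuts down the B-cell programme and that also acts in effector and regulatory T cells and in macrophages. Its plasma-gate level was 43.1 CPM (32.4 to 56.2) in WT NOD and 57.3 CPM (48.2 to 67.6) in the other library. Macrophages stood at 44.0 CPM (29.5 to 63.2) and 41.6 CPM (33.9 to 50.4), so the plasma gate was 0.979 times (0.613 to 1.60) and 1.38 times (1.06 to 1.80) the macrophage level. The T gate followed at 35.6 and 35.4 CPM, for ratios of 1.21 (0.904 to 1.59) and 1.62 (1.35 to 1.93). Within it the cells with a Foxp3 UMI, a marker of regulatory T cells, had 64.3 CPM (54.3 to 75.4) and 67.2 CPM (59.6 to 75.5). The plasma gate was 0.671 times (0.482 to 0.921) and 0.852 times (0.691 to 1.05) that level, lower in WT NOD by an interval that excludes 1. Against B cells, at 4.54 and 6.43 CPM, the plasma gate was 9.49-fold and 8.91-fold higher. The pDC gate was also low, at 7.83 and 8.91 CPM, and the plasma gate was 5.50-fold (2.03 to 20.9) and 6.43-fold (3.04 to 16.3) above it. Because T cells are so many in the islet, the T gate held 79.5% and 54.5% of all Prdm1 UMIs, and barcodes with at least 10% immunoglobulin held 6.16% and 14.9%. Prdm1 was thus higher in plasma cells than in B cells and pDCs in both libraries. Foxp3+ T cells stood above the plasma gate in both libraries, and macrophages close to it. With immunoglobulin UMIs left out of the total, the plasma gate was instead 1.31 and 1.57 times the Foxp3+ T level. Of the further gates, monocytes (15 and 40 barcodes) were also above it. The plasma gate was 0.513 (0.271 to 1.05) and 0.926 (0.650 to 1.35) times their level.

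Irf4 encodes a transcription factor that is needed in B cells, T cells and plasma cells, with a known dependence on its level. Its plasma-gate level was 84.6 CPM (69.2 to 102) in WT NOD and 85.3 CPM (74.1 to 97.8) in the other library. The B gate was higher, at 132 CPM (125 to 140) and 119 CPM (113 to 125), so that the plasma gate was 0.640 times (0.519 to 0.781) and 0.717 times (0.617 to 0.829) the B-gate level. The pDC gate stood at 70.5 and 63.7 CPM and the T gate at 33.4 and 43.6 CPM, with 52.2 and 58.9 CPM in Foxp3+ T cells. Macrophages were lowest of the 5 main gates at 6.07 and 12.5 CPM. Germinal-centre-type B cells, at 48.2 and 38.5 CPM from 14 and 67 barcodes, were below the remaining B cells at 134 and 129 CPM, the reverse of Eaf2. The WT NOD value is loose: the plasma gate was 1.75 times (0.859 to 4.17) that level there. In the other library it was 2.22 times (1.65 to 3.03).

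How much of these contrasts depends on the scale was measured, since immunoglobulin RNA takes up nearly as many UMIs in plasma cells as all other genes together. Leaving immunoglobulin UMIs out of the total moved the log2 ratio of plasma to B cells up by 0.953 and 0.863 for every gene, and the median of all genes tested from -1.06 and -1.11 to -0.11 and -0.25. On that scale Xbp1 was 6.69-fold and 5.63-fold over pDCs and became restricted, for 7 of 9 genes beside 0.696% of all genes. Against the B gate alone the same 8 genes were at least 4-fold higher on that scale, beside 5.91% of all genes. Irf4 turned from below B cells to 1.24-fold and 1.30-fold above them, so its direction depends on the scale. Prdm1 stood at 1.92 and 2.54 times the macrophage level, and turned from below Foxp3+ T cells to 1.31 and 1.57 times their level. As a share of all RNA, plasma cells carried less Irf4 than B cells, and as a share of RNA other than immunoglobulin they carried slightly more.

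**Figure D2:**
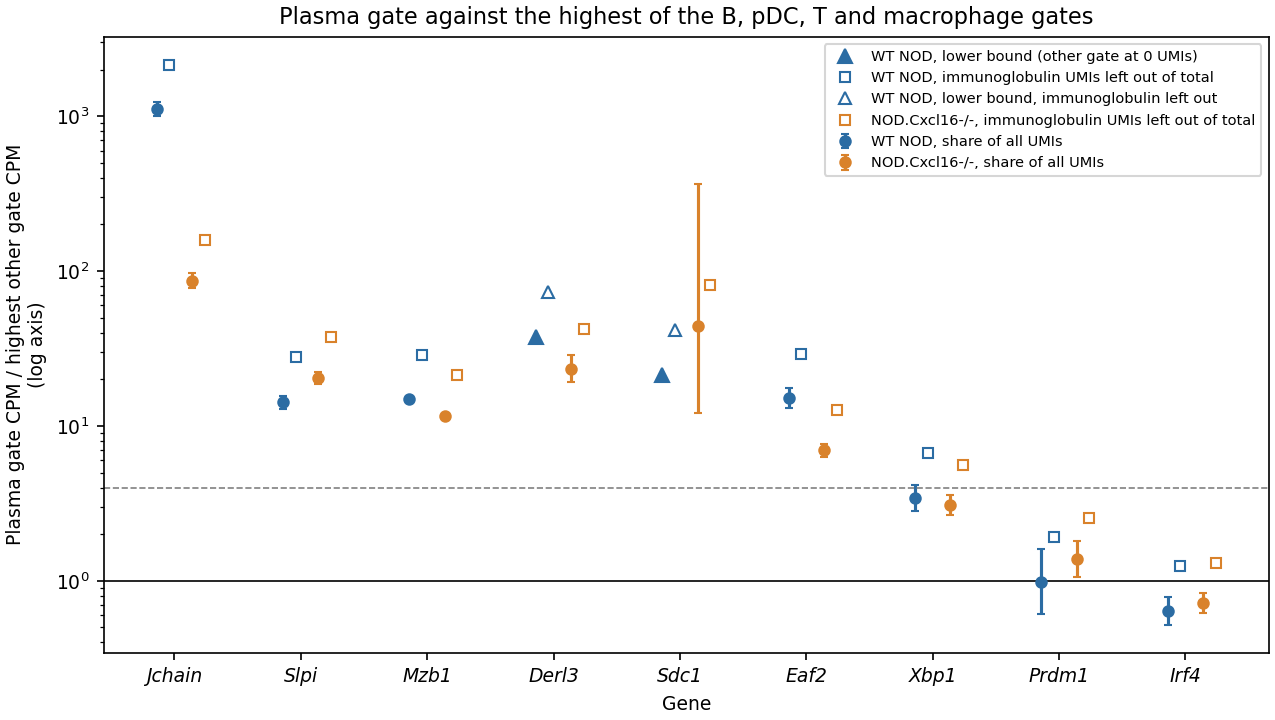
Ratio of the plasma-gate CPM to the highest CPM among the B, pDC, T and macrophage gates (log axis) for each gene and library. Filled circles carry 95% counting intervals, filled triangles are lower bounds against 3 counts, and open symbols show the ratio with immunoglobulin UMIs left out of the total; the dashed line is 4-fold and the solid line equal levels. Xbp1 crosses the dashed line with the change of scale, from 3.43 to 6.69 in WT NOD.

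A second measure of sharing compared each gene with immunoglobulin itself. Free RNA of lysed cells enters droplets, but its make-up was not measured here, and the plasma gate that serves as the yardstick held 44.4% and 43.5% of all immunoglobulin UMIs. The T gate leaves out barcodes with at least 10% immunoglobulin, of which 117 and 93 had at least 2 T markers. Its immunoglobulin level is thus set in part by the gate. Immunoglobulin made up 0.0529% of T-gate UMIs in WT NOD and 0.0523% in the other library, 0.108% and 0.114% of its share in the plasma gate. The level of each gene is given as a multiple of the level it would have in that same ratio. Jchain had 0.684 (0.645 to 0.726) and 0.774 (0.728 to 0.822) times that level in the T gate, and 0.695 (0.405 to 1.11) and 0.533 (0.393 to 0.706) times in the macrophage gate. Slpi had 0.750 and 1.76 times in the T gate and Mzb1 1.52 and 1.95 times, and in the library labelled NOD.Cxcl16-/- 1 barcode carried 250 of the 536 Mzb1 UMIs of the T gate. Derl3 had 2.98 and 2.74 times, from 26 and 24 UMIs, and Sdc1 6.65 and 9.78 times, from 33 and 44 UMIs. Eaf2 stood at 17.7 and 17.6 times, Xbp1 at 49.1 and 65.7 times, Irf4 at 366 and 446 times and Prdm1 at 764 and 540 times. In the T gate Eaf2, Xbp1, Irf4 and Prdm1 were thus more than 10 times above the immunoglobulin ratio in both libraries, and Jchain was below it. The source of these counts was not tested. In the pDC gate Slpi stood at 14.4 and 4.69 times, Xbp1 at 59.6 and 31.1 times and Mzb1 at 5.41 and 4.81 times the level at the immunoglobulin ratio there. Immunoglobulin made up 0.240% and 0.478% of pDC-gate UMIs, while the median pDC barcode had 0.204% and 0.156%. In the library labelled NOD.Cxcl16-/- the yardstick was thus well above the median barcode, and its part in the lower multiples was not tested.

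**Figure D3:**
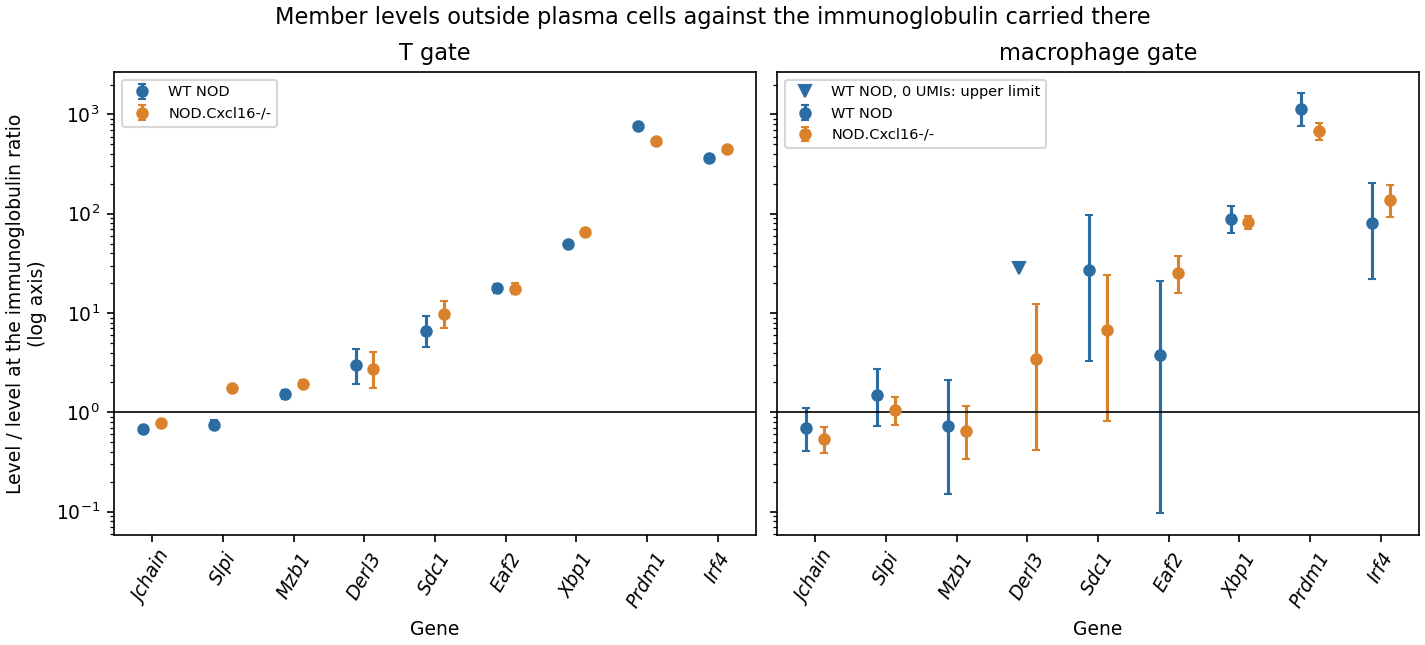
Level of each gene in the T gate (left) and macrophage gate (right), divided by the level it would have in the same ratio to the plasma gate as immunoglobulin (log axis, line at 1), with 95% counting intervals for both libraries; a downward triangle is the upper limit for a gene with 0 UMIs. In the T gate the order runs from Jchain at 0.684 and 0.774 to Prdm1 at 764 and 540.

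Single plasma-gate barcodes differed widely in these genes. Levels within the gate are given as CPM of the UMIs that are not immunoglobulin, so that the immunoglobulin share does not itself lower them. Jchain had a median of 57720 in WT NOD, with a range from 4804 to 257641, and a median of 33422 in the other library, from 0 to 295883. Slpi had medians of 10154 and 7290.2, and 6 barcodes of each library had none. A Prdm1 UMI was seen in 25 of 84 and 61 of 120 barcodes and an Irf4 UMI in 40 of 84 and 74 of 120, shares that depend on depth. The median barcode had 7 and 8 of the 9 genes, and 18 and 31 barcodes had all 9. At a fixed 2000 UMIs, with 17 and 19 shallower barcodes left out, 98.5% and 100% of plasma-gate barcodes had at least 3 of the 9 genes. The shares were 4.60% and 6.07% in the B gate and 0.496% and 0.836% in the T gate, with 221 and 94 shallower B barcodes and 1477 and 282 shallower T barcodes left out.

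Plasma-gate barcodes were then divided by immunoglobulin share. Secretion was not measured. None of the 9 genes counts as immunoglobulin in this share of RNA, but all 9 are part of the total it is taken from. Jchain climbed with the share: in bins of 10 to 20%, 20 to 40%, 40 to 60% and 60 to 100% it stood at 14952, 36313, 94390.5 and 148260.0 in WT NOD. In the other library it stood at 12713, 31338, 87898 and 136105. The top bin was 4.08 (3.97 to 4.20) and 4.34 (4.26 to 4.43) times the 20 to 40% bin. Xbp1 was 1.80 (1.503 to 2.163) and 2.26 (2.002 to 2.556) times as high in the top bin as in the 20 to 40% bin, and Sdc1 1.77 (1.13 to 2.78) and 2.82 (2.03 to 3.93) times. Slpi was 1.36 (1.30 to 1.42) and 2.22 (2.16 to 2.28) times as high. These 4 genes were higher in the top bin than in the 20 to 40% bin in both libraries, with intervals above 1.

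The other genes did not share one pattern across these bins. Mzb1 was lower in the top bin than in the 20 to 40% bin, at 0.462 times (0.432 to 0.494) in WT NOD and 0.796 times (0.759 to 0.835) in the other library. Eaf2 was at 0.638 (0.505 to 0.802) and 0.862 (0.704 to 1.05) times. Set against the 10 to 20% bin these genes read differently: Eaf2 was higher in the top bin, at 2.12 (1.37 to 3.42) and 1.36 (1.04 to 1.79) times, and Mzb1 was at 0.420 (0.388 to 0.455) and 1.02 (0.960 to 1.08) times. Derl3 was level in WT NOD at 1.09 times (0.776 to 1.52) and higher in the other library at 2.04 times (1.62 to 2.56). Prdm1, at 1.09 (0.512 to 2.29) and 0.955 (0.566 to 1.57) times, and Irf4, at 1.11 (0.647 to 1.90) and 1.32 (0.877 to 1.98) times, had wide intervals that include 1. In WT NOD the bins of 10 to 20%, 20 to 40% and 60 to 100% held 14, 19 and 18 barcodes, so a few cells set each value there. The 10 to 20% bin was also shallow, with median UMIs of 1608 and 2947 against 26115 and 30867 in the top bin. Its part in these differences was not tested.

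**Figure D4:**
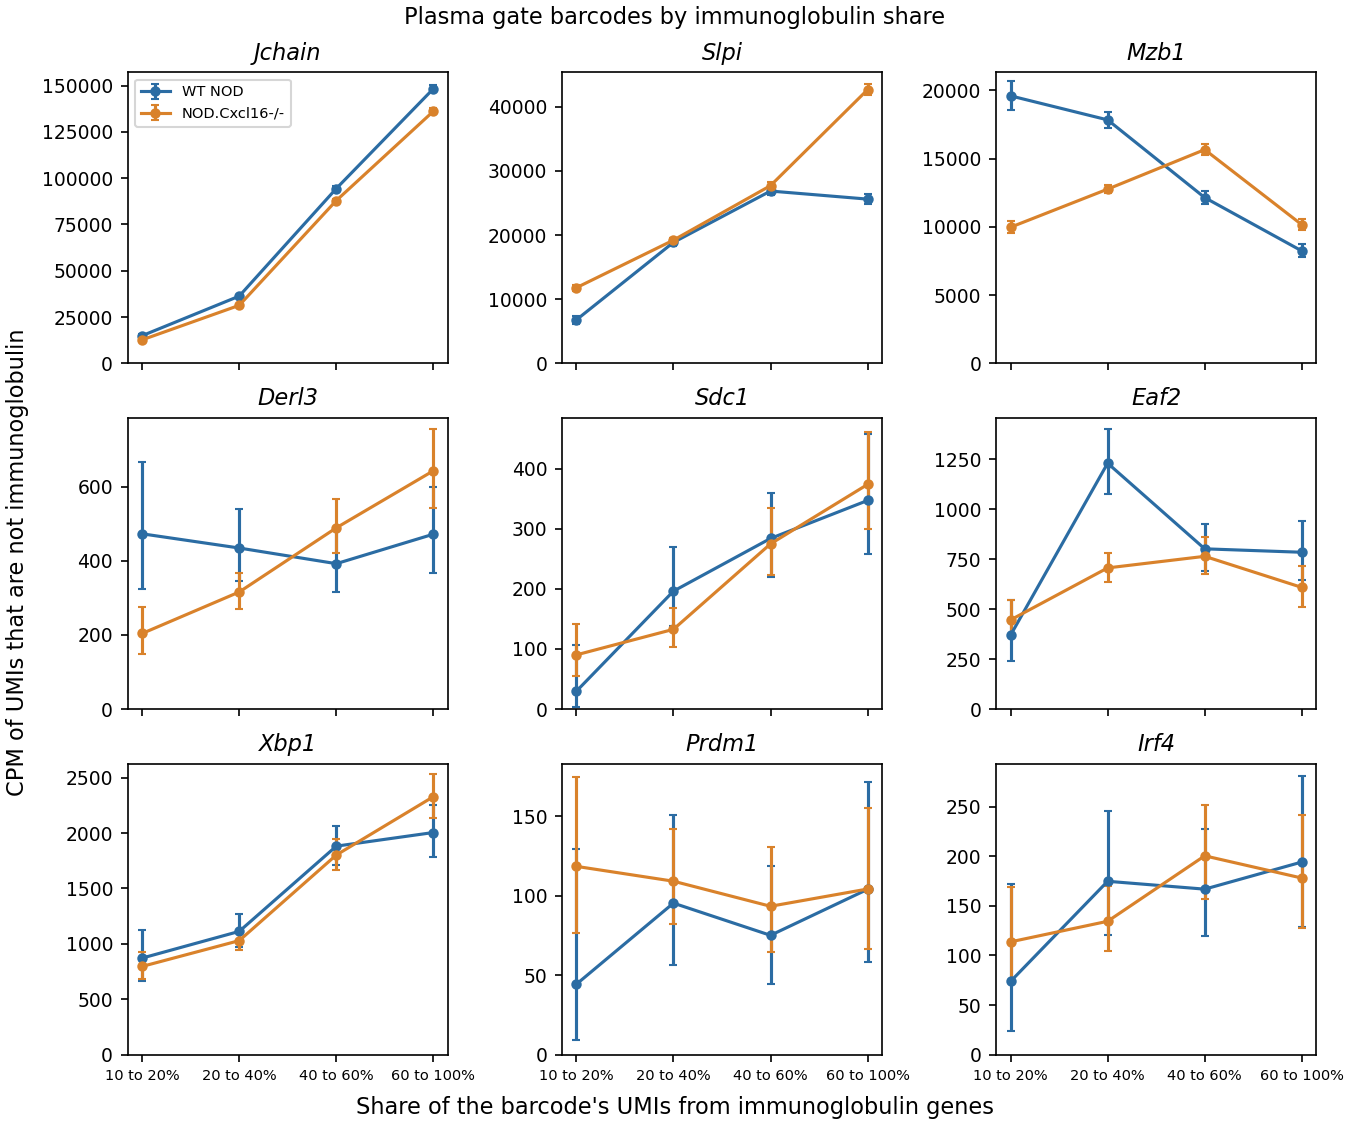
Level of each gene in the plasma gate (CPM of UMIs that are not immunoglobulin, axis from 0) in 4 bins of immunoglobulin share, for both libraries, with 95% counting intervals. Jchain, Xbp1 and Sdc1 climb in both libraries, Mzb1 ends lower than in the 20 to 40% bin, and Prdm1 and Irf4 have intervals too wide to order the bins.

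Values on both sides of the threshold of the gate are given as a description. Barcodes below it had at most 1 marker of each of the pDC, T and macrophage gates, and B markers were allowed. Any of them with at least 2 B markers also belongs to the B gate, and their part in B-gate levels was not measured. In the library labelled NOD.Cxcl16-/-, 16 barcodes with 5 to 10% immunoglobulin had Jchain at 3951 and Slpi at 4169, from 959 and 1012 UMIs. The 12 barcodes with 10 to 15% had 9495 and 18857. In WT NOD 2 barcodes just below had Jchain at 7723 and Slpi at 184, from 1 UMI, and 10 just above had 15336 and 2593. A small group of cycling barcodes, with at least 2 cell-cycle markers, was present in both libraries, 9 of 84 and 17 of 120. Their immunoglobulin share was lower, 20.6% against 52.2% in WT NOD and 26.5% against 52.1% in the other. Cycling barcodes had 0.269 (0.2582 to 0.2796) and 0.307 (0.301 to 0.314) times the Jchain of the others, and 0.440 (0.345 to 0.554) and 0.434 (0.385 to 0.488) times the Xbp1. Sdc1 was at 0.507 (0.270 to 0.879) and 0.499 (0.365 to 0.672) times. Eaf2 differed in direction between the libraries, at 1.36 (1.10 to 1.67) and 0.627 (0.535 to 0.733) times. Cycling barcodes were shallower in WT NOD, at a median of 3139 against 16040.0 UMIs, and deeper in the other library, at 31329 against 19076, and the part of depth was not tested.

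Slpi and Jchain differed between IgM and IgG plasma cells, in opposite directions. A barcode was assigned to IgM, IgG or IgA when that class made up at least 80% of its heavy-chain UMIs, which gave 33, 37 and 9 barcodes in WT NOD and 34, 63 and 22 in the other library. Slpi stood at 8723 in IgM and 36823 in IgG barcodes of WT NOD, a ratio of 4.22 (4.04 to 4.42). In the other library it stood at 6158 and 37366, a ratio of 6.07 (5.78 to 6.37). The medians over barcodes had the same order, 6336 against 35674 in WT NOD and 2737 against 14795 in the other. IgA barcodes had 1463 and 12203, which was 0.168 (0.128 to 0.215) and 1.98 (1.87 to 2.10) times the IgM level, opposite directions in the libraries. These IgA groups were unlike: their median immunoglobulin share was 13.5% in WT NOD and 51.6% in the other library. Their median depth was 1866 and 24927.5 UMIs, and the part of share and depth was not tested. The ranges of IgM and IgG overlapped, and in WT NOD 1 barcode carried 38.6% of the Slpi UMIs of the IgM group. The IgG group pools subclasses whose mix differed between the libraries. Slpi stood at 35957 in 30 Ighg2c and 46447 in 4 Ighg2b barcodes of WT NOD, and at 56035 in 38 Ighg2c and 16804 in 23 Ighg2b barcodes of the other library. The direction of IgG against IgM was the same in each of 8 other settings of the gate and filters, but leaving out barcodes with B markers moved the log2 ratio from 2.08 to 3.55 in WT NOD and from 2.60 to 1.24 in the other library. Barcodes with B markers were also deeper, at medians of 21757.5 and 27754 UMIs against 3374.5 and 2815.5 without. The part of depth in that change was not tested.

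Jchain was lower in IgG barcodes, whose antibody is secreted as a monomer, at 53376 against 109235 in IgM barcodes of WT NOD and at 38686 against 73710.4 in the other library. The ratios were 0.489 (0.479 to 0.498) and 0.525 (0.516 to 0.534), or -1.03 and -0.93 on the log2 scale, and without barcodes with B markers they were -0.44 and -0.37. In the library labelled NOD.Cxcl16-/- the Ighg2b barcodes had 26346 and the Ighg2c barcodes 53927. Even so IgG plasma cells had ample Jchain, with medians of 44101 and 21589 over barcodes. IgA barcodes had 96877 and 114725, from 9 and 22 barcodes, and in WT NOD 1 barcode carried 45.1% of these UMIs at a median depth of 1866 UMIs. Mzb1 was higher in IgG than in IgM barcodes, 1.48 (1.42 to 1.55) and 1.38 (1.32 to 1.43) times, and Sdc1 was lower, 0.569 (0.397 to 0.811) and 0.587 (0.435 to 0.795) times. Xbp1 differed little, 1.17 (1.02 to 1.34) and 1.07 (0.953 to 1.20) times. The median immunoglobulin share of IgM and IgG barcodes was close, 47.2% and 49.3% in WT NOD and 37.9% and 38.5% in the other library. That of IgA barcodes was 13.5% in WT NOD and 51.6% in the other library. Cells of 1 library are not replicates, and their clonal relations were not measured.

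**Figure D5:**
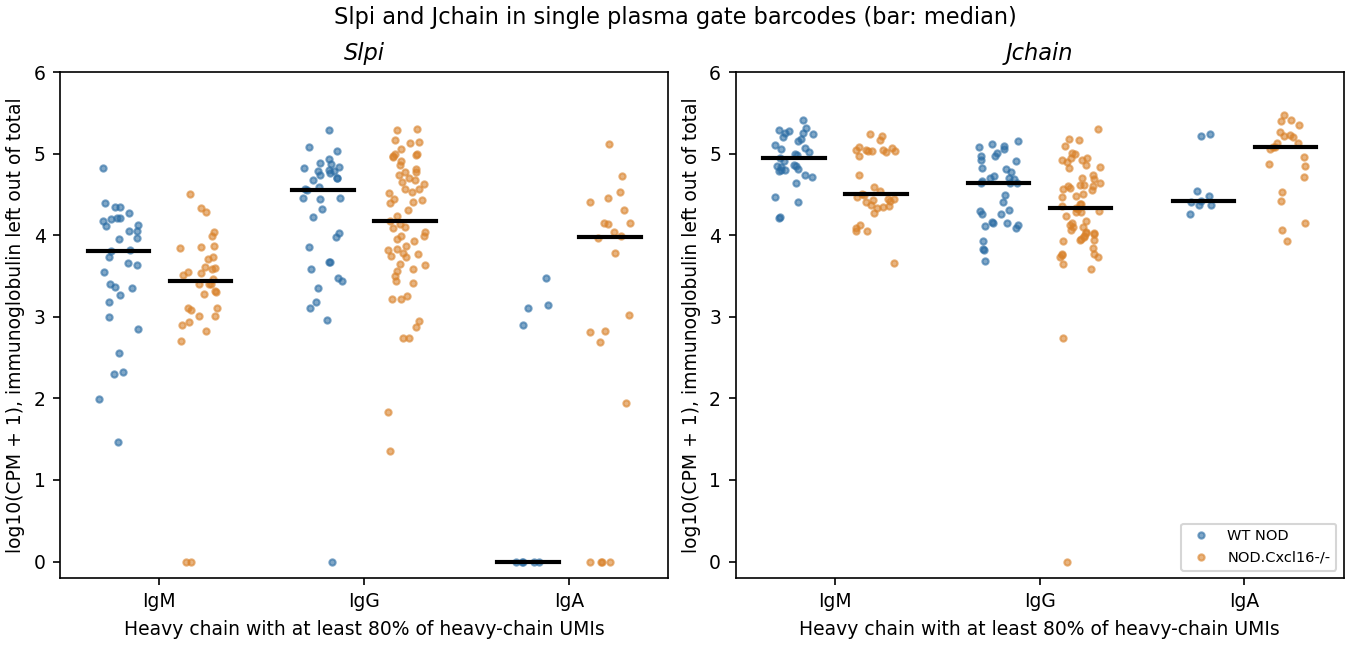
Slpi (left) and Jchain (right) in single plasma-gate barcodes by heavy-chain class, as log10(CPM + 1) of UMIs that are not immunoglobulin; each point is a barcode and black bars are medians. In both libraries the Slpi median is higher in IgG (35674 and 14795) than in IgM barcodes (6336 and 2737), and the Jchain median is lower.

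Between the libraries none of the 9 genes passed 1.5-fold in the plasma gate, beside 127 of 1518 genes measured there, or 8.37% (5.27% higher and 3.1% lower in the library labelled NOD.Cxcl16-/-). At that share a count of 0 of 9 is near the background and says nothing particular about these genes. On the log2(CPM + 1) scale, the library labelled NOD.Cxcl16-/- minus WT NOD, Mzb1 differed by -0.03 (-0.07 to 0.01), Xbp1 by -0.05 (-0.16 to 0.06), Derl3 by -0.01 (-0.22 to 0.21) and Irf4 by 0.01 (-0.33 to 0.36). Jchain was lower by 0.29 and Eaf2 by 0.32, and Slpi was higher by 0.24. These 3 had counting intervals that exclude 0, but Slpi fell to -0.74 and Jchain moved to 0.07 when barcodes with B markers were left out. That setting also removes the deeper barcodes of the gate, and the part of depth was not tested. Sdc1 differed by -0.15 (-0.44 to 0.14) and Prdm1 by 0.40 (-0.05 to 0.89), an interval that reaches past 1.5-fold. With the 127 and 117 barcodes of mixed markers kept in the gate, 1 of the 9 passed 1.5-fold, and 2 did without the barcodes with B markers or as a mean over cells.

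The wider secretory pathway was raised in plasma cells over B cells, but most of its genes were not restricted to them. Of 79 genes in 3 lists, 78 could be tested, and 68 were higher in the plasma gate than in the B gate in both libraries, beside 14.7% of all genes tested. With immunoglobulin left out of the total 76 of 78 were, beside 33.6% of all genes. At least 4-fold over B cells were 21 of 78, beside 3.12% of all genes tested. By the rule of all 4 other gates 6 of 78 were restricted, beside 0.265% of all genes. The median log2 ratio to B cells was 1.39 and 1.17 over the 78 genes, against -1.06 and -1.11 over all genes. The ratio to the highest other gate had a median of only 0.63 and 0.51, against -1.93 and -1.81 over all genes. With immunoglobulin left out of the total 16 of the 78 were restricted, beside 0.696% of all genes. With the barcodes of mixed markers kept the count was 1, beside 0.198%, and without the barcodes with B markers it was 3, beside 0.216%.

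In ER folding and degradation 4 of 29 genes were restricted, beside 0.265% of all genes, the share for each such count below. They were the disulphide isomerases Txndc5 (1037 and 735 CPM in the plasma gate, 63.5 and 57.2 CPM in the B gate) and Pdia4 (565 and 466 CPM against 49.1 and 63.9 CPM), with Creld2 and the degradation factor Edem1. The lectin chaperone Canx, at 63.8 and 73.4 CPM against 95.9 and 136 CPM in B cells, and the oxidase Ero1lb were below B cells. With immunoglobulin left out Canx turned to 0.37 (log2) in WT NOD and stood at -0.02 in the other library, and Ero1lb stood at -0.59 in WT NOD and at the B-cell level in the other library. Of 30 genes of translocation and glycosylation only Ssr4, a subunit of the translocon-associated complex, was restricted, at 2408 and 2204 CPM against 248 and 249.8 CPM in B cells. The signal peptidase subunit Sec11c fell just short, at a log2 ratio of 1.99 and 1.86 over pDCs, while the paralogous subunit Sec11a was below B cells at 89.4 and 101 CPM and turned to above them, by 0.64 and 0.63 on the log2 scale, with immunoglobulin left out. Of 19 genes of vesicle transport the cargo receptor Lman1 alone was restricted, at 305 and 348 CPM against 19.0 and 36.0 CPM.

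Stress signalling, apart from Xbp1 itself, had no restricted gene among 9. Higher than in B cells in both libraries were 5 of 9, beside 14.7% of all genes tested. Creb3l2, a membrane-bound transcription factor of the ER, stood at 47.1 and 49.0 CPM in the plasma gate against 2.73 and 2.56 CPM in B cells. The early stress gene Ppp1r15a was lower, at 99.7 and 75.02 CPM against 273 and 233 CPM. Atf4 was lower, at -0.28 and -0.29 (log2), and turned to 0.68 and 0.57 with immunoglobulin left out. Of 13 tested regulators and surface genes Tnfrsf17 and Fkbp11 were restricted, beside 0.265% of all genes. Cd38 was far lower than in B cells, at 4.79 and 8.66 CPM against 97.1 and 92.5 CPM. Of 20 B-cell identity genes outside the gate markers none was higher in plasma cells and 18 were at least 4-fold lower than in the B gate, beside 11.2% of all genes. With immunoglobulin left out of the total 11 of 20 were, beside 2.81%. Cd74, the invariant chain of MHC class II, stood at 5274 and 4863 CPM against 12084 and 11909 CPM. That was -1.20 and -1.29 on the log2 scale, and only -0.24 and -0.43 with immunoglobulin left out. The low-affinity IgE receptor Fcer2a stood at 1.60 and 1.65 CPM against 236 and 194 CPM.

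Across 22 points, the 11 gates of both libraries, the genes outside the set with the most similar profiles were named by Pearson correlation of log2(CPM + 1), as a description. Jchain and Sdc1 were most like Ccr10, a chemokine receptor of plasma cells, with r of 0.956 and 0.947. Xbp1 was most like the ER genes Selenos (0.955), Hsp90b1 (0.937) and Ddost (0.913). Slpi was most like Txndc5 (0.919), Mzb1 like Gm30211 (0.949), and Derl3 and Eaf2 like Pls1 (0.928 and 0.906). For Irf4 the closest gene was St6gal1 (0.855), and for Prdm1 it was Calu (0.733). Among the members Jchain and Sdc1 had r of 0.928, whereas Prdm1 and Irf4 had -0.48. The points of a library share depth and free RNA, and most gates outside the plasma gate are near 0 for several of these genes.

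In GENCODE M21 on GRCm38, Jchain lies at 5:88519809-88527891, Xbp1 at 11:5520659-5525893, Derl3 at 10:75893413-75895941, Prdm1 at 10:44437177-44528501, Irf4 at 13:30749226-30766976, Sdc1 at 12:8771323-8793715, Eaf2 at 16:36792884-36875003 and Slpi at 2:164354070-164389095. Slpi contains the microRNA gene Mir7678 on its strand. Jchain, Xbp1, Derl3, Prdm1, Irf4 and Sdc1 overlap no other annotated gene.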

How the data were processed

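The values deposited are unnormalised UMI counts for each gene in each barcode, made by the authors with Cell Ranger 7.0.1 on mm10, per the submitters' processing notes. Whether intronic reads were counted is not given in the sources used here. Barcodes with fewer than 500 genes (1582 and 311) or over 10% mitochondrial UMIs (25 and 29) were left out, as were the highest doublet scores by the Scrublet scheme at 0.8% per 1000 barcodes (1537 and 891). UMIs were summed per gate and scaled to CPM. Levels carry exact Poisson, shares Clopper-Pearson and ratios exact conditional binomial intervals. A gate at 0 was set to 3 counts for ratios. On simulated counts the 4-fold rule was checked. Members, markers and gene lists were chosen with earlier results of these data known. Text names the 9 members, in each list among the 4 highest and 2 lowest genes by ratio to the next gate, the 10 genes outside the set with the highest ratio, and the 3 closest profiles per member. Other settings tried were 12, with 2 more chosen after seeing the data. Python 3.11.15, numpy 2.4.6 and scipy 1.17.1 were used.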

Additional observations from a re-analysis of the deposited data

Results flagged for a closer look

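Prdm1 in the plasma gate was on either side of the macrophage level in the libraries. The log2 ratio was -0.0302 in WT NOD, where the interval of the ratio (0.613 to 1.60) includes equal levels, and 0.46 in the library labelled NOD.Cxcl16-/-, and the difference was not tested. With immunoglobulin left out of the total both were positive, at 0.94 and 1.34.

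Outside the gates compared, the library labelled NOD.Cxcl16-/- held 57 barcodes with at least 10% immunoglobulin and at least 2 macrophage markers, against 4 in WT NOD. The macrophage gates of these libraries held 209 and 74 barcodes. The 57 barcodes had Jchain at 20301 CPM and Slpi at 5640.05 CPM. In that library the macrophage gate had 19.4 and 14.9 CPM and the plasma gate 33836 and 13292 CPM. The barcodes were selected by immunoglobulin share, so high levels of plasma-cell genes are not a separate result. Their summed macrophage markers stood at 3999.7 CPM and their T markers at 757 CPM, and whether they are droplets with more than 1 cell was not tested.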

How the results depend on the processing

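The count of restricted members was recomputed under 12 other settings and under 2 more that were chosen after the data had been seen (without cycling barcodes, and without the richest barcode of each other gate). Ratios to the next gate were recomputed under 12 of these, library differences under 11 and IgG over IgM under 8; the immunoglobulin bins, cycling barcodes and immunoglobulin ratios were not recomputed. The same 6 members were restricted in 11 of these 14. The count was 7 with immunoglobulin left out of the total, 5 at 8-fold, and 4 with cells thinned to 2000 UMIs, where Derl3 (log2 ratios of 2.47 and 3.22) and Sdc1 (2.25 and 3.91) stayed above 4-fold but fewer genes reached 50 UMIs. The count of 6 restricted secretory genes became 16 with immunoglobulin left out, 1 with barcodes of mixed markers kept, 3 without barcodes with B markers, 3 thinned and 0 at 8-fold. The share of all genes restricted was 0.265% at first and then, in the same order, 0.696%, 0.198%, 0.216%, 0.143% and 0.116%. Members past 1.5-fold between libraries went from 0 to 1 with mixed barcodes kept, 2 without B markers and 2 as a mean over cells. Irf4 over the next gate turned to 0.31 and 0.38 (log2) with immunoglobulin left out. The library difference of Slpi turned to -0.13 with mixed barcodes kept, -0.74 without B markers, -0.060 as a mean over cells and -0.018 thinned, that of Jchain to 0.068 without B markers and that of Eaf2 to 0.076 as a mean over cells. The cause of these reversals was not tested, except that leaving out immunoglobulin changes the total by construction. Of 216 recomputed member ratios to the next gate 138 moved by less than their counting interval, 76 moved further and 2 reversed. No paired analysis was possible because each genotype has 1 library. Counting error limits Prdm1 most, with 54 and 139 UMIs in the plasma gate.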

Other observations

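Outside the 9 genes and the immunoglobulin genes, the 10 genes with the highest ratio of the plasma gate to the next gate were Prg2, Gm30211, Fkbp11, Ccr10, Tnfrsf17, Oosp1, Pon3, Prdx4, Pls1 and Ckap4. Prg2, known as the major basic protein of eosinophil granules, stood at 428 CPM in the plasma gate of WT NOD and 152 CPM in the library labelled NOD.Cxcl16-/-, with 1 and 0 UMIs in the pDC gate, its nearest. Ccr10, a homing receptor for mucosal plasma cells, stood at 79.0 and 91.1 CPM, and Prdx4, a peroxidase of the ER, at 566 and 553 CPM, 14.3-fold and 10.4-fold over macrophages. The predicted gene Gm30211 stood at 1383 and 1445 CPM, 16.6-fold and 15.98-fold over B cells. Pon3, a lactonase best known from liver, stood at 219 and 183 CPM, 11.2-fold and 10.52-fold over the next gate.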
